A study of Caenorhabditis elegans with 2 samples.

Results

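The binding of RBM-26 at 8 chaperone genes of Caenorhabditis elegans was described, out of 19973 protein-coding genes on the nuclear chromosomes. The genes were chosen by name, with earlier results of these data known. They were hsp-1, hsp-70 and hsp-110 (cytosol), hsp-17 (a small heat shock protein), hsp-3 and hsp-4 (endoplasmic reticulum, ER), and hsp-6 and hsp-60 (mitochondria). A gene counted as reached where an interval of a peak list touched it by at least 1 bp, or where the summit of the interval lay within 1000 bp of it. Of the 8 genes, 6 were reached in the conservative list of the series, and 14.6% of all protein-coding genes were reached by the same rule.

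The worm gene rbm-26, also called B0336.3, encodes an RNA-binding protein. Its DNA association was mapped by ChIP-seq, in which chromatin bound to a tagged protein is precipitated and sequenced. An anti-GFP antibody was used on whole worms of strain OP801, with chromatin sonicated to 200 to 800 bp. The strain carries the integrated transgene wgIs801, a fosmid with B0336.3 fused to TY1, EGFP and 3xFLAG tags, together with unc-119(+), and is otherwise mutant for unc-119 (allele tm4063). Both samples were young adults at 66 hours, synchronised as starved L1 larvae after bleaching, and no heat or other stress treatment is named in the labels. The samples are biological replicates 1 and 2 of 1 group, each from whole animals, so the tissue in which a region was bound cannot be told apart. The labels name no change to the endogenous rbm-26 gene. With 1 group there was no second condition, and no test between groups was made.

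Chaperones hold unfolded proteins and help them to fold. HSP70 proteins bind exposed stretches of client proteins in a cycle driven by ATP, with J-domain proteins that deliver clients and exchange factors that reset the cycle. HSP60 chaperonins close clients inside a barrel, and small heat shock proteins hold clients without ATP. Each compartment has its own set and its own stress response. The heat shock response of the cytosol acts through HSF-1, the unfolded protein response of the ER through IRE-1 and XBP-1, PEK-1 and ATF-6, and that of mitochondria through ATFS-1.

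Each list gives the authors' own signal per peak, and the conservative list holds 3045 rows. The wider list holds 3344 rows, and the lists of replicate 1 and replicate 2 hold 2386 and 1974 rows. All 4 are thresholded on the irreproducible discovery rate (IDR), a measure of how well ranks repeat, at a −log10 global IDR of at least 2.0. The 4 longer ranked lists hold 36577 to 40147 rows. The read depth is unknown, and signals were ranked only within a list. Values of both replicates are given side by side, with ratios, though how their lists were scaled is not given.

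For 5 genes a summit lay upstream of the start, and the sequence there is shown because motifs of the stress responses were searched in it. Each line gives 151 bases around the upstream summit of highest signal, 5′ to 3′ on the strand of the named gene, read from the RefSeq WBcel235 genome. Capitals mark matches on either strand to the 8-base heat shock element cores GAANNTTC and TTCNNGAA, or to the unfolded protein response motifs CCACG and ACGTG.
hsp-60, chrIII:1619018-1619168, plus strand: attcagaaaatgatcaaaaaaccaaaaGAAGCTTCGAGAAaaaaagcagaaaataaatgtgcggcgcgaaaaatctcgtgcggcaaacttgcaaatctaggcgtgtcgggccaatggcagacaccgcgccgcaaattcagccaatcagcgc
hsp-6, chrV:4827035-4827185, minus strand: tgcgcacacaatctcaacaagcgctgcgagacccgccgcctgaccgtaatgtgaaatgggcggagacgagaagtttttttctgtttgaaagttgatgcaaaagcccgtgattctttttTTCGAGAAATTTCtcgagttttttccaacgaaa
hsp-110, chrIII:8447066-8447216, minus strand: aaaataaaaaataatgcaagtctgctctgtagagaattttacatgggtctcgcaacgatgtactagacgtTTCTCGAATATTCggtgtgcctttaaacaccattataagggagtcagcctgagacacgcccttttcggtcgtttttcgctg
hsp-1, chrIV:17278466-17278616, plus strand: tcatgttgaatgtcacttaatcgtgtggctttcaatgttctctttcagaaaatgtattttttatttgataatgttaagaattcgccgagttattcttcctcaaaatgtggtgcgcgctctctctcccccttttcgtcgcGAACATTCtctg
hsp-3, chrX:6092121-6092271, minus strand: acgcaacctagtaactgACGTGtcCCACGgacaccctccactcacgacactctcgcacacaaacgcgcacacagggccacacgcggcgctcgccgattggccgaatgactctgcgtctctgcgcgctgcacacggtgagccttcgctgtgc
The sequences at hsp-60, hsp-6 and hsp-110 hold overlapping heat shock element cores. The sequence at hsp-3 holds an ACGTG and a CCACG 2 bases apart. The sequence at hsp-1 holds 1 core, 68 bp from the summit.

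In the cytosol, hsp-1 and hsp-110 were reached in the conservative list and hsp-70 was not. The gene hsp-1 (WBGene00002005, IV:17278959-17281330, plus strand) encodes the constitutive HSP70 of the cytosol. It had the most rows, 7 summits in 2 intervals, and 1 interval of 3003 bp covered the gene nearly from end to end. The highest summit, with a signal of 352, fell on the last base of the gene in its 3′ UTR. The authors' own values there were 161 in replicate 1 and 181 in replicate 2.

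A second hsp-1 summit of 284 lay 418 bp upstream of the start, with 201 in replicate 1 and 90.5 in replicate 2. This pair had the highest ratio between the replicates, 2.22, among the rows with a value in both. Another summit of 272 lay 201 bp past the end, within the 3′ UTR of the neighbouring gene nra-1, with 122 and 121. The remaining 4 summits were lower, at 53.8 to 146. The lowest, 219 bp upstream, had 5.39 in replicate 1 and no summit within 100 bp in replicate 2. The summits of 146 and 130 lay in coding exons, 127 and 83 bp from the snoRNA gene F26D10.24, which lies within hsp-1. The upstream summit of 284 lay 39 bp from the non-coding gene F26D10.23.

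The gene hsp-110 (WBGene00016250, III:8443910-8446909, minus strand) encodes the HSP110 relative of HSP70, an exchange factor for HSP70. It was reached at both sides and had no conservative summit inside. The summit 114 bp past its end had a signal of 257, with 131 in replicate 1 and 123 in replicate 2. The summit 232 bp upstream of its start had 214, with 109 and 117. The replicates were close at both places. The upstream summit lay between hsp-110 and the divergent gene rpn-3, a regulatory subunit of the proteasome, whose start was 212 bp away. The summit past the end lay 189 bp upstream of ufbp-1 on the same strand. The upstream summit was also 46 bp from the non-coding gene C30C11.14. In the wider list hsp-110 had 4 further summits inside the gene, at 19.1 to 93.7.

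The gene hsp-70 (WBGene00002026, I:9320325-9322519, minus strand), which encodes a heat-inducible HSP70 of the cytosol, had no row in any thresholded list. In the between-replicate ranked list, which holds every conservative row, its highest of 6 summits was 55.7, 69 bp past the end. Among all reached genes in that list the median of the highest signals was 69.7. The summit 78 bp upstream of the hsp-70 start had a signal of 27.2. In the ranked lists of the replicates, the highest values were 28.6 in replicate 1 and 34.4 in replicate 2, below the medians of 35.4 and 38.3. The −log10 global IDR of its rows reached 0.818 in the between-replicate list, against the 2.0 of a thresholded row.

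The gene hsp-17 (WBGene00002021, V:8384799-8385929, minus strand) encodes a small heat shock protein and was the lowest of the reached genes. Its higher summit, with a signal of 140, lay in a coding exon 902 bp downstream of the start, with 87.0 in replicate 1 and 49.4 in replicate 2. The other summit, of 88.0, lay in an intron, with 55.2 and 38.8. Replicate 1 was higher at both, and the gene was in the thresholded list of replicate 1 and not in that of replicate 2. No conservative summit lay upstream of its start within 1000 bp. The signal of 140 was below the median of 155 over all 2923 reached genes.

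In the ER, the paired BiP genes differed. BiP is the HSP70 of the ER lumen, and worms have 2 copies, hsp-3 and hsp-4, of which hsp-4 is widely used as a reporter of ER stress. The gene hsp-3 (WBGene00002007, X:6089028-6092124, minus strand) had a summit of 390 only 72 bp upstream of its start. That row ranked 79 of 3045 in the conservative list, 36 in the list of replicate 1 with 242, and 212 in that of replicate 2 with 147. The ratio between the replicates was 1.65. A second summit of 99.9, 231 bp past the end, had 50.8 and 57.7, and was thresholded in neither replicate. It lay 385 bp from the gene C45B2.8 and 821 bp downstream of the start of that gene.

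The gene hsp-4 (WBGene00002008, II:7350112-7352645, minus strand) had no row in any thresholded list. In the between-replicate ranked list the highest of its 9 summits was 73.2, in the gene 190 bp before its end, and another of 61.7 lay 936 bp upstream. The highest values in the ranked lists were 31.4 in replicate 1 and 40.1 in replicate 2. These lie near the medians of all reached genes, 35.4 and 38.3. The −log10 global IDR of its rows reached 1.23 in the between-replicate list and 1.49 in the pooled ranked list, both under 2.0. The hsp-3 signals of 242 and 147 were above those of hsp-4 in the same lists, so the direction was the same in both replicates.

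In mitochondria, both genes were reached, and hsp-60 had the highest signal of the 8. The gene hsp-60 (WBGene00002025, III:1619742-1625803, plus strand) encodes the mitochondrial chaperonin. Its highest summit had a signal of 576, which ranked 8 of 3045 rows. It ranked 5 in replicate 1 with 321 and 15 in replicate 2 with 266, a ratio of 1.21. That summit lay 649 bp upstream of hsp-60 and 164 bp upstream of the divergent gene Y22D7AL.10. RefSeq names the product of Y22D7AL.10 a 10 kDa heat shock protein of mitochondria, the co-chaperonin that caps the HSP60 barrel. One summit thus lay between the genes of both parts of the chaperonin, and which of them it belongs to cannot be told from position alone.

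The other hsp-60 summits were lower. A summit of 191 lay 87 bp past the end, with 85.1 in replicate 1 and 107 in replicate 2, and 742 bp upstream of Y22D7AL.4. A summit of 32.3 in a coding exon had 44.6 in replicate 1 and no replicate 2 summit within 100 bp. The wider list had no row there and had one of 84.1 at 437 bp upstream instead.

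The gene hsp-6 (WBGene00002010, V:4824124-4826760, minus strand) encodes the HSP70 of the mitochondrial matrix. Its highest summit, 214, lay 271 bp past the end and 430 bp upstream of adss-1 on the same strand, with 84.5 in replicate 1 and 120 in replicate 2. A summit of 194 lay 350 bp upstream of the start, with 89.0 and 104. It lay inside the non-coding genes C37H5.15 and C37H5.16, and 250 bp upstream of the divergent gene C37H5.5, which RefSeq names a homolog of nucleolar complex protein 3. Replicate 2 was higher at both summits. A summit of 129, 72 bp past the end, had 35.4 and 75.9, and a summit of 5.84 in the 3′ UTR had no value in either replicate within 100 bp.

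**Figure D1:**
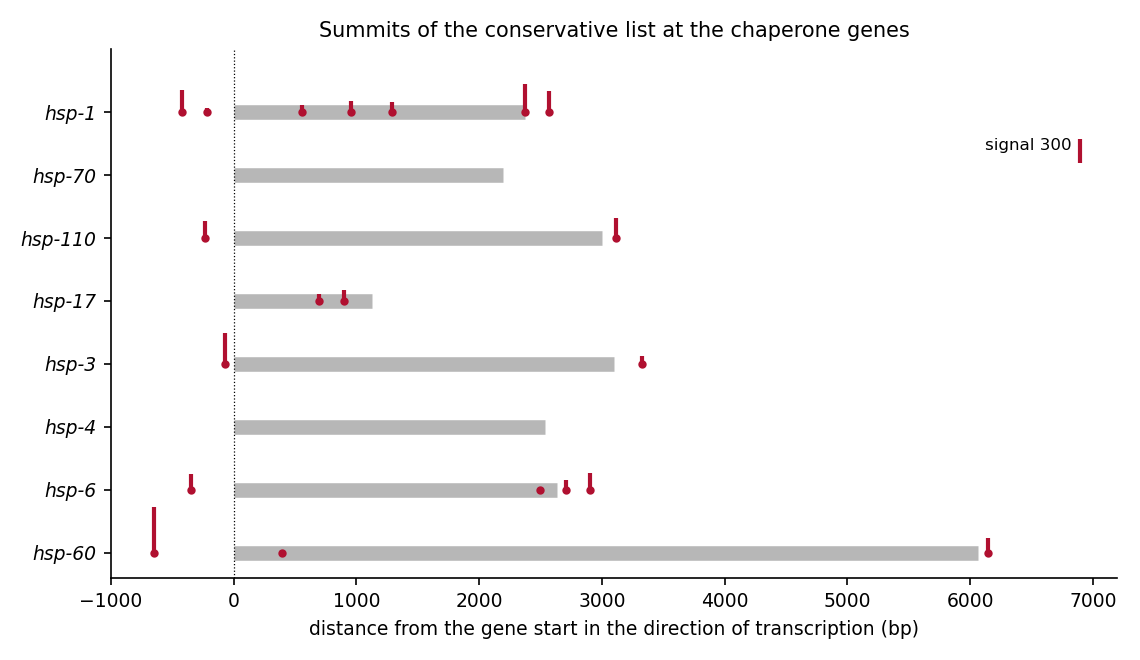
Positions of the conservative summits along the chaperone genes, with distance from the gene start in bp on the horizontal axis. Each of the 8 genes is a grey bar, each point is a summit and the height of its red line is the authors' signal. Summits lie on both sides of hsp-1, hsp-110, hsp-3, hsp-6 and hsp-60, while both hsp-17 summits lie within the gene and hsp-70 and hsp-4 have none.

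Of the 8 genes, 5 had a summit within 1000 bp upstream of the start, and 6.32% of all genes did. The 5 were hsp-1, hsp-110, hsp-3, hsp-6 and hsp-60. The same 5 had a summit within 1000 bp past the end, against 6.35% of all genes. A summit inside the gene was found for 4 of 8, hsp-1, hsp-17, hsp-6 and hsp-60, against 5.56%. Both sides were occupied for 5 of 8 genes, against 1.48% of all genes, a pattern looked for after it was seen. In each replicate's own thresholded list 4 genes had both sides occupied, hsp-1, hsp-110, hsp-6 and hsp-60. Of all genes 0.836% did in the list of replicate 1 and 0.676% in that of replicate 2. The 8 genes are 1131 to 6062 bp long, and the median of all protein-coding genes is 2027 bp. All but hsp-17 are longer than that median.

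Summits near a gene can belong to a neighbour. When each summit was given to the nearest gene start within 1000 bp, 4 of 8 genes had one, hsp-1, hsp-17, hsp-3 and hsp-60, against 6.93% of all genes. In the lists of both replicates this held for hsp-1 and hsp-3, against 3.39% of all genes. The upstream summits of hsp-110, hsp-6 and hsp-60 were nearer to the divergent genes rpn-3, C37H5.5 and Y22D7AL.10. Past the end, the summits of hsp-110, hsp-6, hsp-60 and hsp-3 were nearer to the starts of ufbp-1, adss-1, Y22D7AL.4 and C45B2.8. For hsp-110, hsp-6 and hsp-60 the summits on both sides were thus nearer to the start of a neighbour. The gene hsp-60 was counted here through its summit of 32.3, 392 bp downstream of the start, which has no replicate 2 value.

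The outer limit of 1000 bp decided no gene. The farthest conservative summit inside it lay 649 bp upstream, at hsp-60. The nearest outside it was 1410 bp upstream of hsp-1, with a signal of 95.1. For hsp-70 the nearest conservative summit lay 12475 bp past the end, with a signal of 33.1, and for hsp-4 it lay 12475 bp past the end, with 236.

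**Figure D2:**
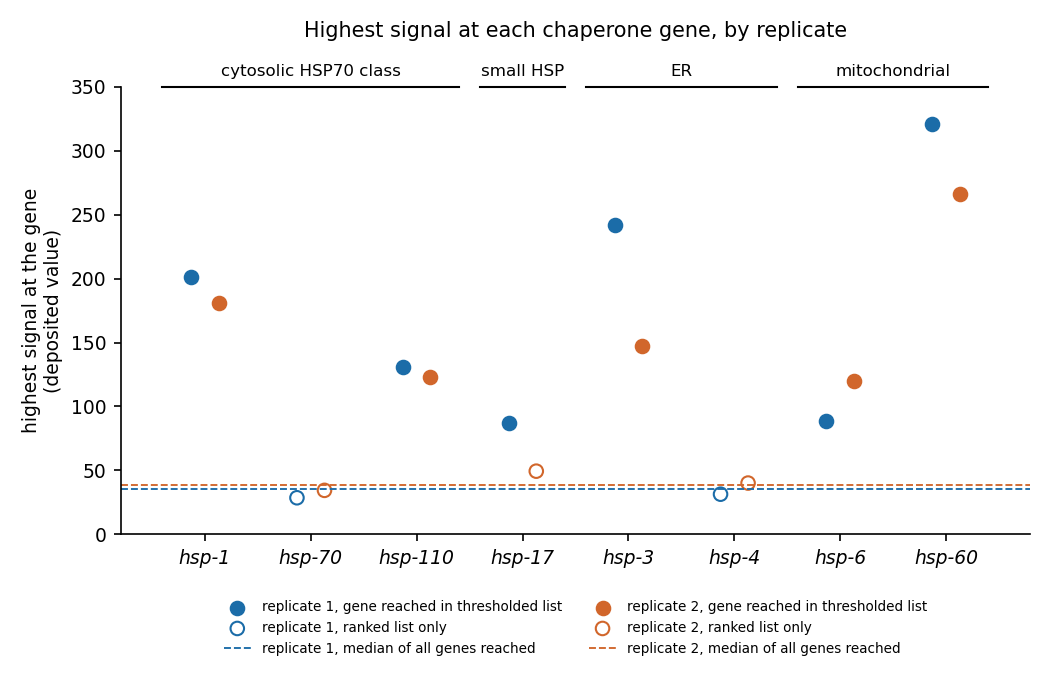
Highest authors' signal of each of the 8 genes in the ranked lists of replicate 1 and replicate 2, on a linear vertical axis from 0, with 1 point per replicate. Filled points are genes reached in that replicate's thresholded list, open points those in its ranked list only, and dashed lines the medians of all reached genes. The values run from 28.6 and 34.4 at hsp-70 to 321 and 266 at hsp-60.

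Across the lists the 8 genes were found as follows. In the wider list 6 of 8 were reached, against 15.7% of all genes. In the thresholded list of replicate 1 it was 6 of 8, against 11.7%, and in that of replicate 2 it was 5 of 8, against 10.3%. In both it was 5 of 8, against 7.95%. In the ranked lists all 8 were reached, but so were 46.7% of all genes in the between-replicate list, 51.7% in that of replicate 1, 48.8% in that of replicate 2 and 47.6% in the pooled list. A ranked row alone is therefore common.

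By compartment, the conservative list reached 2 of 3 cytosolic genes, the 1 small heat shock protein gene, 1 of 2 ER genes and 2 of 2 mitochondrial genes. With 1 to 3 genes in each, the compartments cannot be compared. The reached genes had a median highest signal of 304, in a range of 140 to 576, against 155 over all 2923 reached genes. Among those 2923 genes, hsp-60 ranked 10, hsp-3 99, hsp-1 161, hsp-110 433, hsp-6 717 and hsp-17 1694. The first 5 of these are the genes with summits on both sides.

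The order held in part between replicates. In replicate 1 the highest signals were 321 at hsp-60, 242 at hsp-3, 201 at hsp-1, 131 at hsp-110, 89.0 at hsp-6 and 87.0 at hsp-17. In replicate 2 they were 266 at hsp-60, 181 at hsp-1, 147 at hsp-3, 123 at hsp-110, 120 at hsp-6 and 49.4 at hsp-17. The genes hsp-1 and hsp-3 changed places, and hsp-110 and hsp-6 were close in replicate 2. The highest summit of a gene was not always at the same place in both replicates. For hsp-1 and hsp-6 it lay upstream of the start in replicate 1 and past the end in replicate 2. At the hsp-1 upstream place the values were 201 and 90.5.

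**Figure D3:**
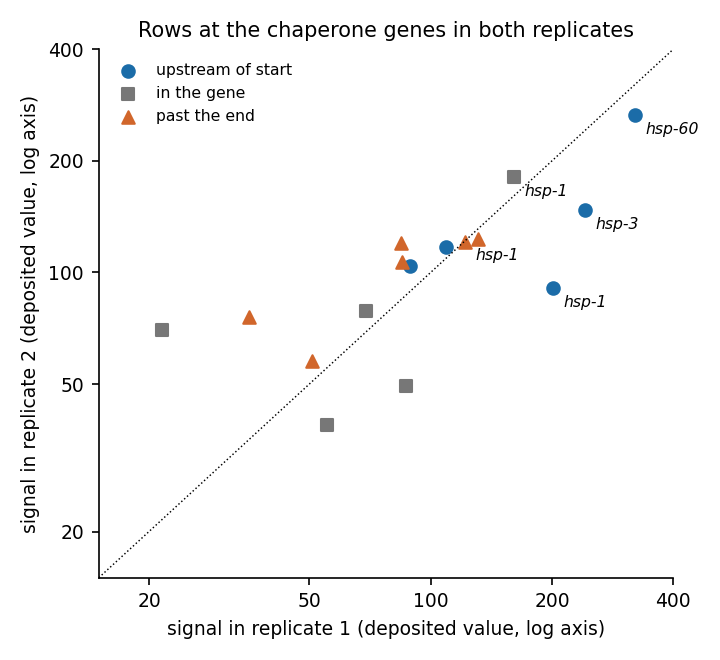
Authors' signal of each conservative row at the 8 genes in replicate 1 (horizontal) against replicate 2 (vertical), both logarithmic, for the 16 rows with a summit within 100 bp in both. Symbols give the side of the gene, and the points lie on both sides of the dotted line of equal values, with ratios from 0.31 to 2.22.

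The 20 conservative rows at these genes lie in 12 intervals, and rows that share an interval are not independent. Of the 20 rows, 19 had a replicate 1 summit within 100 bp, 16 had a replicate 2 summit and 16 had both. Replicate 1 was higher in 7 of the 16 and replicate 2 in 9. The ratio of replicate 1 to replicate 2 had a median of 0.91. It ran from 0.31, at the hsp-1 summit 559 bp downstream of the start with 21.5 and 69.8, to 2.22. At the upstream summits replicate 1 was higher in 3 of 5, and at those past the end replicate 2 was higher in 4 of 6. Of the 20 rows, 12 were thresholded in both replicates. The same share over all conservative rows is not given here, so whether these rows repeat better or worse cannot be told. How the replicate lists were scaled is not given in the sources used here. Whether a ratio away from 1 is a difference in binding therefore cannot be told.

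The wider family was read through 83 genes in 3 lists grouped by function, chosen with earlier results of these data known. In the cytosol 23 of 43 genes were reached in the conservative list (53.5%), in the ER 13 of 22 (59.1%) and in mitochondria 8 of 18 (44.4%). In all it was 44 of 83 (53.0%), against 14.6% of all genes. The median highest signal of the reached genes was 178, against 155 over all reached genes. By list it was 229 in the cytosol, above 155, and 125 in the ER and 144 in mitochondria, both below it. With each summit given to the nearest start the count was 23 of 83, against 6.93% of all genes. In the lists of both replicates 29 of 83 genes were reached, against 7.95%.

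**Figure D4:**
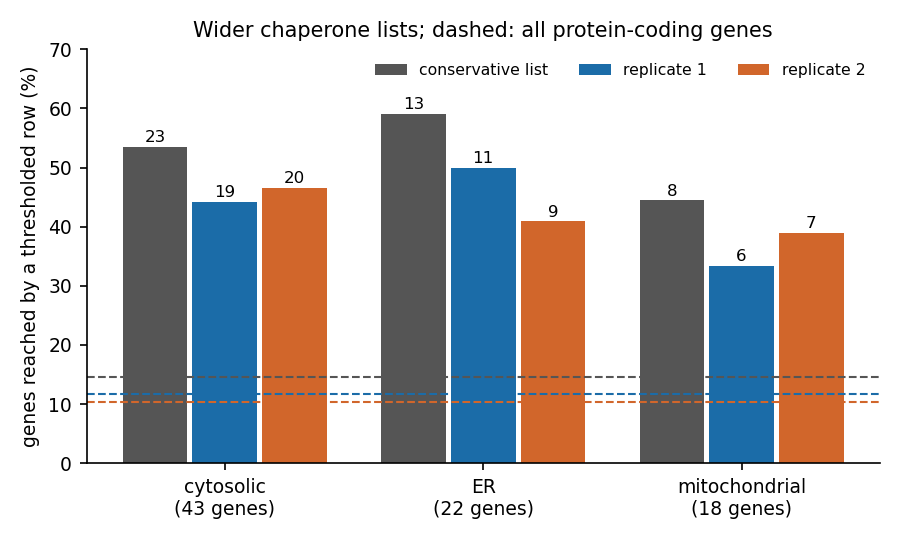
Percent of genes reached in the conservative list and in the thresholded list of each replicate, for the cytosolic, ER and mitochondrial lists, with the number of genes above each bar. Dashed lines give the same for all protein-coding genes, 14.6%, 11.7% and 10.3%, and every bar stands above its line.

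In the cytosolic list, co-chaperones that serve HSP70 and HSP90 were reached in 10 of 11 cases, as grouped after their values were seen. In the conservative list 14.6% of all genes were reached. The reached co-chaperone genes included dnj-13 with 368 and dnj-19 with 307, both J-domain proteins, and bag-1 with 325, an HSP70 exchange factor. They also included unc-45, a myosin chaperone, with 264 at a summit 11221 bp downstream of its start. The ring-shaped CCT chaperonin, which folds actin and tubulin, had 5 of 8 subunit genes reached. Of these, cct-8 had 527, 425 bp upstream of its start, and cct-7 had 299, 3434 bp downstream of its start. Prefoldin, which passes clients to CCT, had 2 of 6. In the lists of both replicates the counts were 8 of 11, 4 of 8 and 0 of 6, against 7.95% of all genes. The HSP90 gene daf-21 had 255, 877 bp downstream of its start.

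Small heat shock protein genes were split into groups after values were seen. None of the 6 hsp-16 genes (6 separate gene IDs) had a row in any thresholded list, against 10.3% to 15.7% of all genes. The group includes near-identical copies, and how reads that map to several places were handled was not stated in the labels or files, so the missing rows are uncertain. Of 7 other small heat shock protein genes, 2 were reached in the conservative list, against 14.6% of all genes. They were sip-1 with 378 and hsp-12.3 with 314, both with summits downstream of the start. The heat-inducible HSP70 pair F44E5.4 and F44E5.5 shared 1 summit of 229, 150 and 201 bp upstream of their starts. These 2 genes are also near-identical. The gene of the heat shock factor itself, hsf-1, was not reached in the conservative list.

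In the ER list, genes for sensors and factors of the unfolded protein response were reached in 4 of 5 cases. The subgroups named here were formed after values were seen. In the conservative list 14.6% of all genes were reached. The transcription factor gene xbp-1 had 313, 1748 bp downstream of its start, atf-6 had 142 and pek-1 had 122. The sensor gene ire-1 was not reached in that list. In the lists of both replicates only 1 of these 5 genes was reached, xbp-1, against 7.95% of all genes. Among chaperones, crt-1 (calreticulin) had 255, 275 bp upstream of its start, and enpl-1 (the HSP90 of the ER) had 208, 31 bp upstream, while cnx-1 (calnexin) was reached in the wider list and that of replicate 2 and not in the conservative list. The protein disulfide isomerase genes, which form disulfide bonds in clients, were reached in 3 of 4 cases, with pdi-3 at 157. The remaining named genes were dnj-20 with 182, a J-domain protein, and sel-11 with 125, a ubiquitin ligase of ER degradation. Their summits lay 6633 and 2813 bp downstream of the starts.

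In the mitochondrial list, Y22D7AL.10 had the 576 it shares with hsp-60. The gene C34C12.8, a homolog of the exchange factor GrpE per RefSeq, had 381, 144 bp upstream of its start. Genes of the mitochondrial stress response were reached in 3 of 4 cases, atfs-1 with 133, ubl-5 with 153 and dve-1 with 95.7. Genes of mitochondrial proteases were reached in 2 of 5, clpp-1 with 153, 1691 bp downstream of its start, and ymel-1 with 132, 137 bp upstream. The prohibitin gene phb-2 had 136, 1557 bp downstream of its start. In the lists of both replicates the counts were 2 of 4 and 1 of 5, and dve-1 was in no thresholded list but the conservative one. Of all genes 14.6% were reached in the conservative list and 7.95% in both replicates. These subgroups too were formed after values were seen.

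The sequence at the summits was searched in windows of 250 bp to each side. The GAANNTTC core was found at 25.6% of all 3035 nuclear conservative summits and TTCNNGAA at 25.8%. Windows at gene starts, from 250 bp before to 50 bp after, held them in 18.5% and 18.9% of cases. These windows are shorter than the 501 bp at summits, so the shares of the 2 kinds of window were not compared. Single cores were not limited to upstream summits. Past the end, hsp-60 had 3 GAANNTTC, hsp-110 had 1 GAANNTTC and 2 TTCNNGAA, and hsp-1, hsp-3 and hsp-6 had none. Inside the genes, some summits of hsp-1 and hsp-17 had cores, and those of hsp-6 and hsp-60 had none. Runs of 3 alternating units, GAA and TTC in turn, with the 2 cores overlapping by 3 bases, were looked for after the sequences were seen. Such runs were found at 2.97% of summits (90 of 3035) and in 1.97% of start windows (393 of 19973). Among the 5 genes with an upstream summit, 4 had them within 250 bp, hsp-1, hsp-110, hsp-6 and hsp-60, at 81, 1, 49 and 42 bp from a summit. For hsp-1 this is the lower upstream summit, of 53.8, and not the one of 284. The start window of hsp-70, a gene with no thresholded row, also held such a run, as did those of hsp-1 and hsp-110. At hsp-3 none was found, nor at any of the 14 summits inside or past the genes. The presence of these letters is a description, and it does not show that HSF-1 binds there.

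The ER motifs were common. CCACG was found at 43.5% of all summits and ACGTG at 45%. The shorter start windows held them in 21.7% and 27.6% of cases. The window at the hsp-3 upstream summit held 2 of each. The hsp-4 start window held 4 ACGTG and 1 CCACG and no thresholded row. TATAAA was found at 37.9% of summits and in 37.9% of the shorter start windows. The GC content of the 101 bp at a summit had a median of 43.6% over the 20 rows at the 8 genes, and of 45.5% over all 3035 summits. At the hsp-3 upstream summit it was 66.3%.

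The genes most like the leading gene of each compartment were taken by distance between log2 signals in the replicates, over 1240 genes with a conservative summit within 1000 bp of the start and a value in both replicates. The pair of values of each leading gene was that of its highest summit, which for hsp-1 is at the end of the gene. Apart from Y22D7AL.10, which shares the highest summit of hsp-60, the nearest to hsp-60 were tasp-1 (327 and 286), rpl-15 (305 and 250) and nspc-17 (318 and 289). Nearest to hsp-3 were trap-3 (226 and 141), serp-1.1 (217 and 154) and dlc-1 (228 and 166), and nearest to hsp-1 were inx-7 (166 and 183), prmt-5 (164 and 173) and sec-61.G (171 and 179). The distances were 0.048 to 0.192 on the log2 scale.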

How the data were processed

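ChIP-seq peak lists of 2 biological replicates were analysed. The authors deposited them on ce11, per the labels; no aligner, peak caller or read depth is named there (not given in the sources used here). Intervals of counting error could not be had. Each row holds the authors' deposited signal (column 7), a summit, and in the ranked lists a deposited −log10 global IDR. No conversion was made. Rows were joined to Ensembl 115 gene models with python 3.11.15, pandas 2.3.3 and numpy 2.4.6, and figures drawn with matplotlib 3.10.9; a row reached a gene by overlap of at least 1 bp or a summit within 1000 bp. A replicate's value for a row is that of its nearest summit within 100 bp. Motifs were searched on both strands in the RefSeq genome; start windows run from 250 bp before to 50 bp after Ensembl starts.

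The genes and lists were chosen with earlier results of these data known. Named are all 8 genes; genes whose start lies nearer a summit; non-coding genes within 250 bp; up to 8 genes of highest signal per wider list; and the 3 nearest genes by log2 replicate signals. The alternating units, the occupied flanks and the functional subgroups, with the genes named for them outside this rule, were chosen after values were seen. The 31-base runs of hsp-1 found elsewhere in the genome were 3.16%, those of hsp-60 1.13%, those of hsp-70 0.0924% and those of the other 5 genes 0. The alternatives tried were another distance, list, IDR threshold, gene assignment and value per gene, and each replicate left out.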

Additional observations from a re-analysis of the deposited data

How the results depend on the processing

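The count of 6 of 8 genes in the conservative list ran from 4 to 6 over 10 alternatives, without either replicate 5 to 6. Over the same alternatives 3.39% to 17.9% of all genes were reached, 10.3% without replicate 1 and 11.7% without replicate 2. The count was 4 under the alternatives where 3.39% and 6.93% of all genes were reached. Both-replicate membership, 5 genes, fell to 2 when each summit went to the nearest start, where the share of all genes fell from 7.95% to 3.39%. The wider lists' 44 genes became 23 under that assignment, where 6.93% of all genes are reached, and 36 to 48 otherwise, where 10.3% to 17.9% are, with 36 when either replicate was left out. The occupied flanks, 5 genes, gave 4 to 5 under 5 alternatives, with 4 for either replicate alone. The share of all genes there ran from 0.676% to 2.21%. Taking the mean over a gene's rows in place of the highest row moved the signal to 189 for hsp-1, 235 for hsp-110, 114 for hsp-17, 245 for hsp-3, 136 for hsp-6 and 267 for hsp-60. The cause was not tested. No paired analysis was possible because there is 1 group. Read depth is unknown, so a missing row does not show that a gene is unbound.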
